A study of Mus musculus with 9 samples.

Results

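Maf, Mafa, Rora and Rorb encode transcription factors that mark interneurons of the deep dorsal horn, the layers of the spinal cord that receive input from touch receptors. All probe sets whose platform gene symbol was 1 of these 4 were taken, which gave 18 of the 45037 probe sets on the arrays. They covered 3 of the 4 genes, out of 18193 genes with a probe set: Maf had 6 probe sets, Rora 9 and Rorb 3. The annotation used here assigned no probe set to Mafa, which was not analysed here. The arrays held cRNA from spinal cords of mice of the GAD65-GFP genotype at postnatal day 6, a line named for green fluorescent protein driven by the promoter of GAD65, an enzyme that makes the inhibitory transmitter GABA. From each of 3 animals came an intermediate, a dorsal and a ventral piece (n = 3 arrays per region, 9 in all), and all 9 shared the genotype and the age, with no treatment named. The study is on dystonia-associated genes in the circuits of spinal GABAergic interneurons. The labels mention no sorting of cells, so the values are read as those of tissue pieces, in which fewer cells of a type and less RNA per cell cannot be told apart. A dorsal piece was not divided into layers, so the arrays bear on the region and not on the deep dorsal horn as such.

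Maf is a large Maf factor, a basic leucine zipper protein that binds DNA as a dimer and is known from the lens, from touch receptors of the sensory ganglia and from dorsal horn interneurons of the touch-receiving layers. Mafa is its close relative, best known for driving insulin transcription in pancreatic beta cells. Rora and Rorb encode ROR nuclear receptors, which bind as monomers to a half-site and activate genes, some of them of the circadian clock, in competition with the REV-ERB repressors Nr1d1 and Nr1d2. In mice, Rora is needed by cerebellar Purkinje cells and marks excitatory interneurons that carry light touch in the dorsal horn, whereas Rorb marks inhibitory interneurons that gate sensory input to the cord.

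RefSeq's table of promoters (build GRCm38.p6) matched 2 of the 4 genes, Rora and Rorb. The windows before the 2 listed starts of Rorb are printed because the gene moved together with Maf and Rora and its starts differ in matches to the half-sites that the factors recognise. Each is the 250 bases before a start on the minus strand of chromosome 19, written 5′ to 3′, with the match to a Maf half-site (TGCTGA or, on the other strand, TCAGCA) in capitals. The windows are chr19:19111197-19111446 for the first start and chr19:19001118-19001367 for the second.
Rorb, first start: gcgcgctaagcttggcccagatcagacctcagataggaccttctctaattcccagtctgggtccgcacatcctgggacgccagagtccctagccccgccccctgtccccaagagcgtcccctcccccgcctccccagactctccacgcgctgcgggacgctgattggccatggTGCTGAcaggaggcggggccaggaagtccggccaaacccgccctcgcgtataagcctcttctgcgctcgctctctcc
Rorb, second start: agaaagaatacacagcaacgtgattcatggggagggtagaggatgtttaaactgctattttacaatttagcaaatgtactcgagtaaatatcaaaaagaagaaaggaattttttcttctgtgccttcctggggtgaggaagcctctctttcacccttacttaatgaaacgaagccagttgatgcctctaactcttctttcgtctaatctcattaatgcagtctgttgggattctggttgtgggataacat
The first window held 66% G and C and 1 Maf half-site, whose first base lies at position -77 from the start. The second held 39.2% G and C and no Maf half-site. Neither held the ROR half-site AGGTCA or its reverse TGACCT, and the window of Rora (chr9:68653536-68653785, plus strand, 61.2% G and C) held neither motif. Among 32851 windows of this length in the table, 16.08% held a Maf half-site and 14.02% a ROR half-site, on either strand, with matches of the 2 motifs counted separately where they overlap.

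The values were read as log2 expression, although no label gives the scale, and every fold below rests on that reading. The lowest value of the table, 2.15, is called the floor, and a probe set within 0.01 of it was treated as not measured above background. Array medians ran from 3.66 to 3.75, and on each array 36.0% to 36.3% of probe sets were at the floor. Each gene was represented by its brightest probe set, and differences between regions were tested with limma across 13959 genes, with the animal as a block and Benjamini-Hochberg adjustment. A gene is called higher or lower at an adjusted p under 0.05. A ± gives the standard error from the model, or the SD where so marked, and levels of different probe sets are not set against each other, since probe sets differ in affinity.

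Maf, Rora and Rorb were all higher in dorsal than ventral pieces and lower in intermediate than dorsal pieces, and intermediate levels lay at or a little below the ventral ones. Maf had the largest difference of the 3, 3.44-fold between dorsal and ventral pieces, against 1.68-fold for Rora and 1.79-fold for Rorb; whether these differences themselves differ was not tested. All 3 genes were called higher in dorsal than ventral pieces, a call made for 24.5% of all genes tested (28.2% were called lower). All 3 were called lower in intermediate than dorsal pieces, where 14.2% of genes were called lower and 15.9% higher. When each array was centred on its median, the share of the calls between intermediate and dorsal pieces that were higher moved to 67.7%, against 52.8% as deposited, and the 3 genes kept their direction and call. Of the 3, Rora was called lower in intermediate than ventral pieces, where 24.9% of genes were called lower and 23.4% higher, and Maf and Rorb were not called.

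The brightest Maf probe set, 1456060_at, stood at 10.86, 11.14 and 10.53 in the intermediate pieces of animals 1, 2 and 3. It stood at 12.95, 12.83 and 12.76 in the dorsal pieces and at 11.14, 11.14 and 10.91 in the ventral pieces. The dorsal arrays were all above the other 6, with no overlap, while intermediate and ventral arrays overlapped, and the intermediate array of animal 2 and the ventral arrays of animals 1 and 2 carried the same value. Means were 10.84 ± 0.30 in the 3 intermediate arrays, 12.84 ± 0.10 in the 3 dorsal arrays and 11.06 ± 0.13 in the 3 ventral arrays (SD, n = 3 each). Maf fell by 2.00 ± 0.11 in intermediate relative to dorsal pieces (4.0-fold, adjusted p = 0.00065), in 3 of 3 animals. The dorsal minus ventral difference was 1.78 ± 0.11 (adjusted p = 0.000231), again in 3 of 3 animals, and 2.34% of the genes tested had a difference at least as high. The intermediate minus ventral difference was -0.22 ± 0.11, with a 95% interval of -0.50 to 0.06 (adjusted p = 0.169). Without animal 2 this last difference was -0.33 and was called (adjusted p = 0.0276). With the most variable Maf probe set in place of the brightest, the dorsal minus ventral difference was 2.75 and the intermediate minus dorsal difference -2.87.

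The other Maf probe sets repeated the order dorsal over the rest at different sizes. Probe set 1447849_s_at read 8.05, 8.24 and 7.84 in intermediate pieces, 9.61, 9.57 and 9.56 in dorsal pieces and 7.95, 7.99 and 7.89 in ventral pieces. Probe set 1437473_at read 3.94, 3.67 and 3.97 in intermediate pieces, 6.45, 7.02 and 6.42 in dorsal pieces and 3.87, 3.80 and 3.67 in ventral pieces. In both, the dorsal arrays lay above all others and the intermediate and ventral arrays overlapped. Among the 5 Maf probe sets that were called, the dorsal minus ventral difference ran from 1.61 ± 0.17 (1435828_at) to 2.85 ± 0.20 (1437473_at, 7.21-fold, adjusted p = 0.000549), and 1444073_at had 2.75 ± 0.35. The last read 2.83, 3.01 and 2.74 in intermediate pieces, 5.37, 5.61 and 6.22 in dorsal pieces and 3.30, 3.24 and 2.42 in ventral pieces, so it was near the floor outside the dorsal pieces. The sixth, 1447945_at, stood at 2.21, 2.90 and 2.19 in dorsal pieces and at the floor in all intermediate and ventral pieces, so dorsal arrays were a little above the floor and the difference was not called (adjusted p = 0.279 for dorsal minus ventral).

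**Figure D1:**
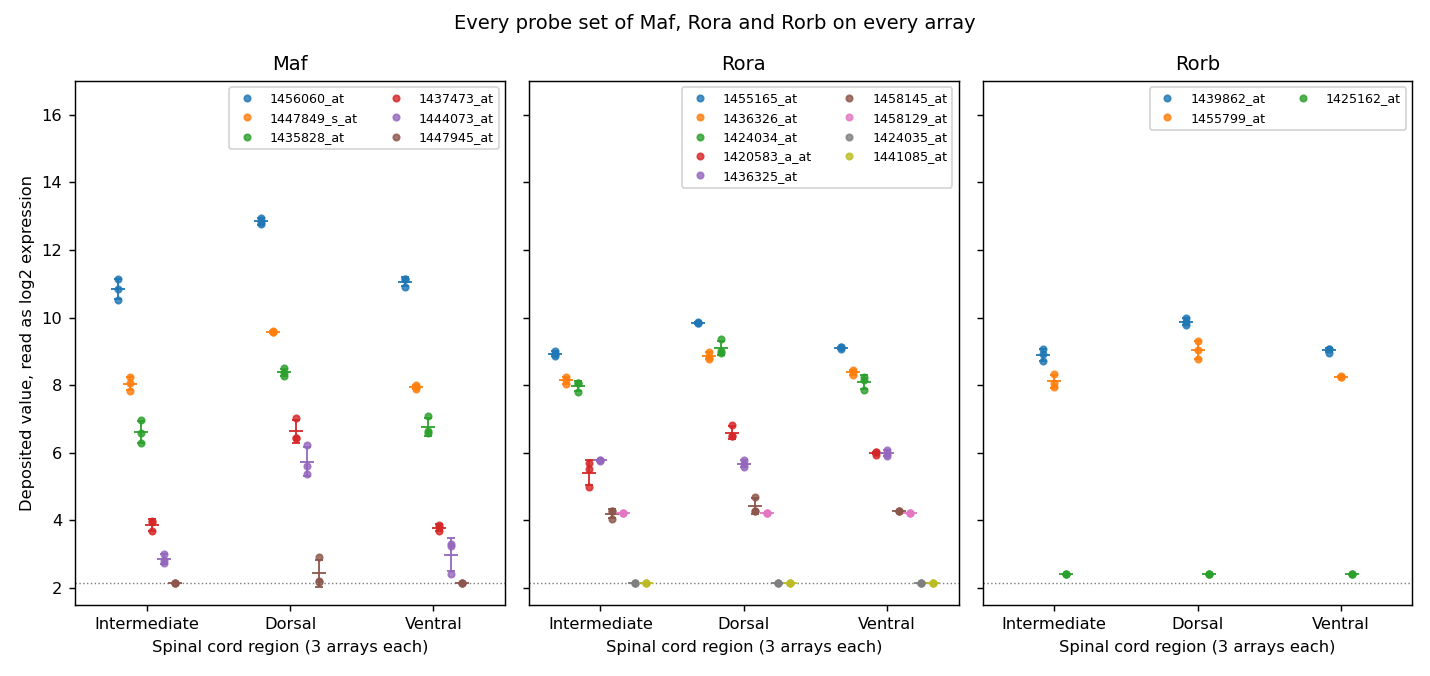
Deposited values, read as log2 expression, of every probe set of Maf, Rora and Rorb by spinal cord region. Each point is 1 array, the bars are the mean and SD of the 3 arrays of a region, and the dotted line is the floor of 2.15. Dorsal points lie above the intermediate and ventral points for the brightest probe set of each gene (Maf 12.76 to 12.95, Rora 9.83 to 9.87, Rorb 9.77 to 9.98), and several Rora probe sets do not move.

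Rora, read by 1455165_at, stood at 8.87, 9.01 and 8.93 in the intermediate pieces of animals 1, 2 and 3. It stood at 9.83, 9.87 and 9.83 in the dorsal pieces and at 9.06, 9.12 and 9.12 in the ventral pieces. None of the 3 regions overlapped another, with dorsal arrays highest and intermediate arrays lowest. Means were 8.93 ± 0.07 in the 3 intermediate arrays, 9.85 ± 0.02 in the 3 dorsal arrays and 9.10 ± 0.04 in the 3 ventral arrays (SD, n = 3 each). Rora fell by 0.91 ± 0.03 in intermediate relative to dorsal pieces (1.88-fold, adjusted p = 0.000179). The dorsal minus ventral difference was 0.75 ± 0.03 (adjusted p = 6e-05), and 9.61% of genes had a difference at least as high. In intermediate pieces Rora also fell by 0.17 ± 0.03 relative to ventral pieces (1.12-fold, adjusted p = 0.00518), in 3 of 3 animals. That call was lost without animal 3 (adjusted p = 0.0731) and with the most variable Rora probe set (-0.11, adjusted p = 0.397). Taking the mean of all Rora probe sets, of which several do not move, gave 0.30 for dorsal minus ventral and -0.45 for intermediate minus dorsal, both still called.

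The Rora probe sets did not all move one way. Probe set 1424034_at read 7.79, 8.07 and 8.06 in intermediate, 8.96, 9.35 and 9.00 in dorsal and 7.85, 8.16 and 8.25 in ventral pieces, a dorsal minus ventral difference of 1.02 ± 0.09 (2.03-fold, adjusted p = 0.0012). Probe set 1420583_a_at had a dorsal minus ventral difference of 0.61 ± 0.16 (adjusted p = 0.0373, lost without any 1 animal, at 0.0788 to 0.276) and an intermediate minus ventral difference of -0.57 ± 0.16 that was not called (adjusted p = 0.0508) although no intermediate array reached a ventral one. Probe set 1436326_at read 8.02, 8.24 and 8.16 in intermediate, 8.83, 8.79 and 8.99 in dorsal and 8.29, 8.45 and 8.39 in ventral pieces. It was higher in dorsal than ventral pieces by 0.49 ± 0.07 (adjusted p = 0.0041; 0.0726 without animal 1 and 0.0706 without animal 3). Probe set 1436325_at, whose source sequence in the annotation is the same as that of 1436326_at, went the other way: 5.78, 5.76 and 5.78 in intermediate, 5.67, 5.78 and 5.59 in dorsal and 5.92, 6.07 and 5.98 in ventral pieces. Every dorsal array was below every ventral one, by -0.31 ± 0.05 (adjusted p = 0.00678), and this call was lost without animal 1 (0.0605) or animal 3 (0.0784). The annotation does not say which part of the transcript either probe set reads, so the pair is reported as uncertain. Probe set 1458145_at moved on 2 of 9 arrays and was not called, 1458129_at held 4.22 on all 9 arrays, and 1424035_at and 1441085_at were at the floor on all 9.

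Rorb, read by 1439862_at, stood at 8.93, 9.06 and 8.71 in the intermediate pieces of animals 1, 2 and 3. It stood at 9.86, 9.98 and 9.77 in the dorsal pieces and at 9.06, 8.96 and 9.07 in the ventral pieces. The dorsal arrays were above all others, and the intermediate arrays, which spread most, overlapped the ventral ones. Means were 8.90 ± 0.18 in the 3 intermediate arrays, 9.87 ± 0.10 in the 3 dorsal arrays and 9.03 ± 0.06 in the 3 ventral arrays (SD, n = 3 each). Rorb fell by 0.97 ± 0.09 in intermediate relative to dorsal pieces (1.96-fold, adjusted p = 0.00224), in 3 of 3 animals, and the call was lost without animal 1 (adjusted p = 0.0573). The dorsal minus ventral difference was 0.84 ± 0.09 (adjusted p = 0.00122), and 8.31% of genes had a difference at least as high. The intermediate minus ventral difference was -0.13 ± 0.09, with a 95% interval of -0.36 to 0.10 (adjusted p = 0.299), and it was positive in animal 2 and negative in the other animals. The second Rorb probe set, 1455799_at, read 8.05, 8.33 and 7.96 in intermediate, 8.77, 9.03 and 9.31 in dorsal and 8.25, 8.27 and 8.24 in ventral pieces, with a dorsal minus ventral difference of 0.78 ± 0.15 (adjusted p = 0.0137; 0.0791 without animal 1 and 0.109 without animal 2). Its intermediate minus dorsal difference was -0.92 ± 0.15 (adjusted p = 0.0166, lost without any 1 animal, at 0.0706 to 0.116). The third, 1425162_at, held 2.40 on all 9 arrays. Averaging the 3 gave 0.54 for dorsal minus ventral and -0.63 for intermediate minus dorsal, both called.

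Over all probe sets, 17 of the 18 passed the filter on low values. In the test of 31526 probe sets, 11 were called higher in dorsal than ventral pieces (21.5% of all probe sets tested) and 1 lower (21.4%). In intermediate relative to dorsal pieces, 11 were called lower (11.9% of all) and 0 higher (10.7%). With 1 animal left out, 8 of the 11 were still called higher in dorsal than ventral pieces, whichever animal it was, and 3, 7 and 6 of the 11 were still called lower in intermediate than dorsal pieces without animals 1, 2 and 3. Over all probe sets, calls in either direction between intermediate and dorsal pieces went from 7113 to 2320, 2735 and 1787 in the same refits. Between dorsal and ventral pieces they went from 13511 to 8583 without animal 3. Between intermediate and ventral pieces they went from 11597 to 6879 without animal 1 and 5932 without animal 3. In this last contrast, 3 Rora probe sets were called lower (18.8% of all) and 0 of any gene higher (17.9%), and the 3 became 0 without animal 1 and 0 without animal 3. By limma at an unadjusted p under 0.05, those counts were 4 lower and 0 higher with all animals, 2 lower without animal 1 and 3 lower without animal 3, and 0 probe sets were higher in intermediate than dorsal pieces. Probe sets of 1 gene share its transcripts and are not replicates of each other.

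**Figure D2:**
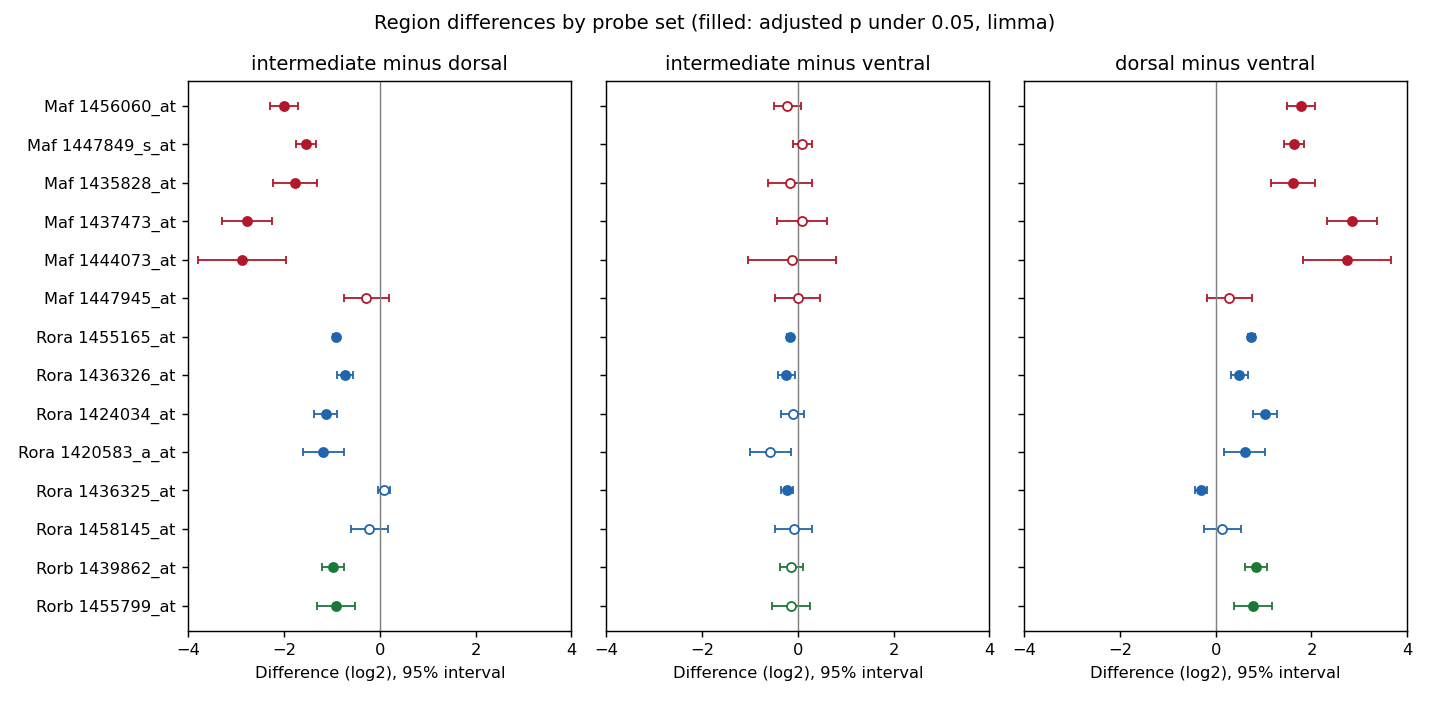
Differences between regions on the log2 scale, with 95% intervals, for the 14 probe sets whose values were not identical or at the floor on all arrays, in 3 panels for the 3 contrasts. Filled points were called by limma at an adjusted p under 0.05. Maf probe sets lie farthest from 0 for dorsal minus ventral (1.61 to 2.85 for the 5 called), and Rora 1436325_at is the point on the other side of 0.

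The relatives of Maf were followed from the list of the family. Mafg, a small Maf protein that lacks an activation domain and pairs with CNC factors such as Nrf2, read 8.93, 8.93 and 9.12 in intermediate, 8.93, 9.19 and 9.07 in dorsal and 8.50, 8.58 and 8.26 in ventral pieces. It was higher in dorsal than ventral pieces by 0.62 ± 0.11 (adjusted p = 0.00809; 0.0557 without animal 1 and 0.064 without animal 2) and higher in intermediate than ventral pieces by 0.55 ± 0.11 (adjusted p = 0.0136, lost without any 1 animal, at 0.064 to 0.085). Its intermediate minus dorsal difference was -0.07 ± 0.11 (adjusted p = 0.717). Mafk, another small Maf, ran from 6.27 to 6.47 in intermediate pieces, stood at 6.27 in all dorsal pieces and ran from 6.10 to 6.27 in ventral pieces, with no call (intermediate minus ventral adjusted p = 0.051, and 0.0335 with arrays centred on their medians). Maff was near the floor at 2.19 to 2.41 on all arrays and not called. Nrl, the rod photoreceptor member of the family, lay at 2.24 to 2.42 in dorsal and 2.22 in ventral pieces; its difference of 0.13 ± 0.04 passed the test (adjusted p = 0.0499) and was lost without animal 2 (0.287) or 3 (0.28).

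Among the nuclear receptors related to Rora and Rorb, the REV-ERB repressor Nr1d2 stood at 11.84, 11.79 and 11.92 in intermediate, 12.04, 12.12 and 12.24 in dorsal and 11.55, 11.50 and 11.78 in ventral pieces. Dorsal arrays were highest and ventral arrays lowest, with no overlap. The dorsal minus ventral difference was 0.52 ± 0.04 (1.43-fold, adjusted p = 0.00056). Nr1d2 was higher in intermediate than ventral pieces by 0.24 ± 0.04 (adjusted p = 0.00873; 0.0828 without animal 1, 0.0627 without animal 2) and fell by 0.28 ± 0.04 in intermediate relative to dorsal pieces (adjusted p = 0.00975; 0.0692 to 0.0886 with 1 animal left out). Nr1d1 was at the floor on all 9 arrays.

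Of 11 listed clock genes under ROR and REV-ERB control, 9 were tested, and 5 were called higher and 2 lower in dorsal than ventral pieces, with a median difference of 0.32 (median of all genes tested -0.0002). Without animal 2 the 5 became 3, and without animal 3 the 2 became 1. Npas2, a partner of the core clock activator, had the largest difference, reading 5.78, 6.26 and 5.41 in dorsal and 3.32, 3.69 and 3.32 in ventral pieces (2.37 ± 0.12, adjusted p = 0.000148). Clock itself was higher by 0.66 ± 0.04 (adjusted p = 0.000219). Arntl and Per2 were not called. Arntl read 8.12, 8.38 and 8.12 in dorsal and 8.22, 8.29 and 7.65 in ventral pieces, with overlap. The cell cycle repressor E2f8 fell by 0.94 ± 0.05 in dorsal relative to ventral pieces (adjusted p = 0.000149), and Bhlhe41, like Nr1d1, was at the floor on all arrays.

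The list of genes that RORA controls in cerebellar Purkinje cells had 7 tested members, of which 5 were called higher and 2 lower in dorsal than ventral pieces, with a median of 2.00. The lower count was 1 without animal 1 or without animal 2. Calb1, which encodes the calcium buffer calbindin, was higher by 3.87 ± 0.11 (adjusted p = 4.59e-05). Pcp2, a G protein modulator of Purkinje cells, read 4.51, 5.17 and 4.76 in dorsal and 2.25, 2.53 and 2.53 in ventral pieces (2.38 ± 0.14, adjusted p = 0.000205), the ventral values being near the floor. Cacna1g, a T-type calcium channel, was higher by 2.09 ± 0.07 (adjusted p = 6.54e-05). Shh, a secreted signal, read 2.15, 2.49 and 2.60 in dorsal and 4.33, 4.39 and 4.18 in ventral pieces, the dorsal values being at or near the floor. It fell by 1.89 ± 0.12 in dorsal relative to ventral pieces (adjusted p = 0.000277). In intermediate relative to ventral pieces, 4 of the 7 were called higher and 2 lower. With animal 1, 2 or 3 left out, the 2 became 0, 0 and 1 (1, 1 and 2 at an unadjusted p under 0.05 in limma), while the 4 stayed at 4.

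Few listed targets of large Maf factors from other tissues could be tested. Of 11 with a probe set, 9 were at the floor on all 9 arrays, among them the lens crystallins Cryaa, Cryba1 and Crybb2 and the beta cell genes Ins2, Pdx1 and Glp1r. The remaining pair were Cryab and Ret. Cryab, a small heat shock protein that is also a lens crystallin, read 8.19, 8.81 and 8.59 in intermediate, 11.90, 10.39 and 10.15 in dorsal and 11.49, 11.46 and 11.50 in ventral pieces. Its intermediate arrays were below all others, and it fell by 2.28 ± 0.48 in intermediate relative to dorsal pieces (adjusted p = 0.0255), a call lost without animal 2 (0.123) or 3 (0.139). That is the direction of Maf, and also that of 4 of 6 Schwann cell genes and 9 of 11 meningeal and fibroblast genes tested. Cryab also fell by 2.96 ± 0.48 in intermediate relative to ventral pieces (adjusted p = 0.00653; 0.0662 without animal 2 and 0.0735 without animal 3), and its dorsal minus ventral difference of -0.67 ± 0.48 was not called (adjusted p = 0.315). Ret, a receptor of GDNF family ligands that is a Maf target in touch neurons, read 9.66, 10.01 and 9.86 in dorsal and 11.08, 10.99 and 10.88 in ventral pieces, and so fell by 1.14 ± 0.11 in dorsal relative to ventral pieces (adjusted p = 0.000809). Its dimmer probe set 1421359_at had a difference of -0.08 that was not called (adjusted p = 0.372).

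Genes listed for interneurons of the touch-receiving layers were mostly higher in dorsal pieces too. Whether each is confined to those layers was not tested. Of 11 tested, 9 were called higher than in ventral pieces and 1, Ret, lower, with a median difference of 2.63. Cck, the neuropeptide cholecystokinin, read 10.78, 11.02 and 10.64 in dorsal and 5.98, 6.14 and 5.89 in ventral pieces (4.81 ± 0.15, adjusted p = 4.96e-05). The potassium channel partner Kcnip2 was higher by 4.08 ± 0.07 (adjusted p = 2.47e-05), although its other probe set, 1425870_a_at, gave 0.62. Calb2, which encodes calretinin, was higher by 3.89 ± 0.09 (adjusted p = 3.54e-05). In intermediate relative to ventral pieces, 7 of the 11 were called higher and 1 lower, with a median of 1.38. The values of Maf, Rora and Rorb in that contrast, -0.22, -0.17 and -0.13, were below that median, and the difference from the list was not tested. A further fit left out genes without 9 distinct values above the floor. Of the touch-zone genes it kept Cck, Kit, Kcnip2, Calb2, Gpr83 and Ret. Of these, 5, all but Ret, were called higher in dorsal than ventral pieces. Of the superficial genes it kept Tac1, Penk, Sst, Npy, Nts and Ebf2, and all 6 were called higher.

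Genes of the superficial dorsal horn, the layers that lie outside the touch zone and receive pain and itch input, had a larger median difference. All 13 tested were called higher in dorsal than ventral pieces (median 3.22) and lower in intermediate than dorsal pieces (median -2.22), and 10 were called higher in intermediate than ventral pieces. Grp, gastrin-releasing peptide, was higher in dorsal than ventral pieces by 6.56 ± 0.24 (adjusted p = 6.81e-05). Ebf2, a transcription factor, read 9.97, 9.92 and 9.71 in dorsal and 2.26, 2.27 and 2.28 in ventral pieces, and was called higher (adjusted p = 0.000152), by an amount left uncertain because the ventral values lie beside the floor. Tac2, the gene of neurokinin B, read 9.52, 9.90 and 9.58 in dorsal pieces and was at the floor in all ventral pieces, which makes it at least 184-fold higher (adjusted p = 0.000321). It read 4.35 in the intermediate piece of animal 2 and was at the floor in the intermediate pieces of animals 1 and 3. That same piece had the highest intermediate value of Maf, Rora and Rorb by their brightest probe sets. Of the other superficial genes, Grp, Gal, Sst, Npy, Ebf2 and Prrxl1 were also highest there among intermediate pieces. Tac1, Npff, Nts and Penk were not, and Penk was lowest there (10.93, against 11.10 and 11.36 in animals 1 and 3). Nmu read the same in all 3 intermediate pieces, and Pdyn in those of animals 1 and 2. The part of superficial tissue in the values of Maf, Rora and Rorb was not tested. The summed level of the superficial list ran, as log2, from 13.00 to 13.07 in intermediate, 14.47 to 14.72 in dorsal and 11.13 to 11.15 in ventral pieces.

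Factors of dorsal interneuron lineages ran the same way, with 6 of 8 tested called higher in dorsal than ventral pieces and 1, Prdm8, lower, a call lost without animal 1 or 2 (median 3.56). Lmx1b, needed by excitatory dorsal horn neurons, was higher by 5.24 ± 0.21 (adjusted p = 8.08e-05), and Lbx1, which sets the identity of dorsal horn neurons, by 4.88 ± 0.15 (adjusted p = 5.03e-05). Of the transmitter genes, 4 of 5 tested were called higher and 1 lower in dorsal than ventral pieces (median 0.79). Gad1, a GABA-synthesising enzyme, read 13.96, 14.08 and 13.94 in dorsal and 10.60, 10.77 and 10.87 in ventral pieces, and Slc17a6, the vesicular glutamate transporter of excitatory neurons, was higher by 1.58 ± 0.06 (adjusted p = 8.83e-05). The glycine transporter Slc6a5 was the lower one, and its call was lost without animal 1 (0.0533) or 3 (0.0671). In intermediate relative to dorsal pieces, 3 of the 5 transmitter genes, Gad2, Slc32a1 and Slc6a5, were called higher (median of the 5, 0.75). That direction is opposite to Maf, Rora and Rorb, while Gad1 was called lower. With 1 animal left out, 2 or 3 were called higher, and Gad1 was called lower each time.

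**Figure D3:**
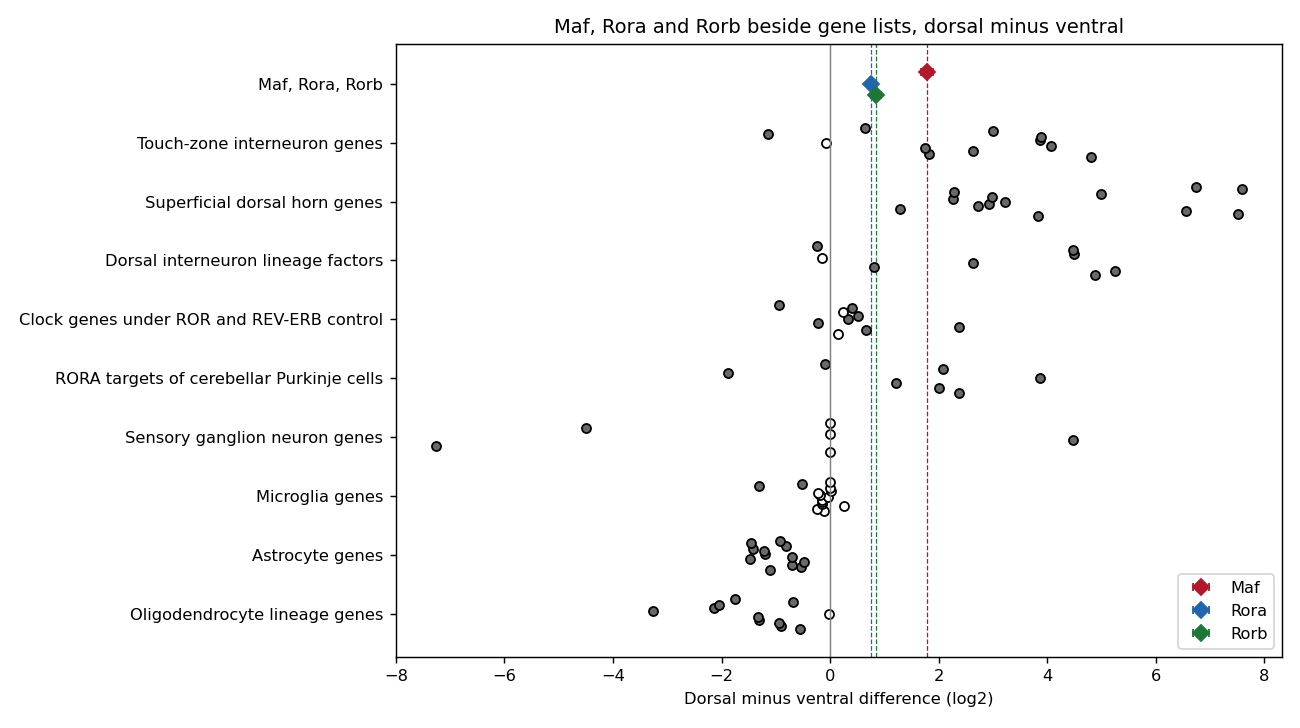
Dorsal minus ventral difference on the log2 scale of Maf, Rora and Rorb (diamonds, with the model's standard error). Dashed lines carry their values down. Circles are the tested genes of the lists named on the left axis, filled where called by limma at an adjusted p under 0.05. A gene at the floor in a region is drawn at its measured difference, which is then a bound. The 3 factors, at 1.78, 0.75 and 0.84, lie below the medians of the touch-zone (2.63) and superficial (3.22) lists, while astrocyte and oligodendrocyte genes lie at or left of 0.

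**Figure D4:**
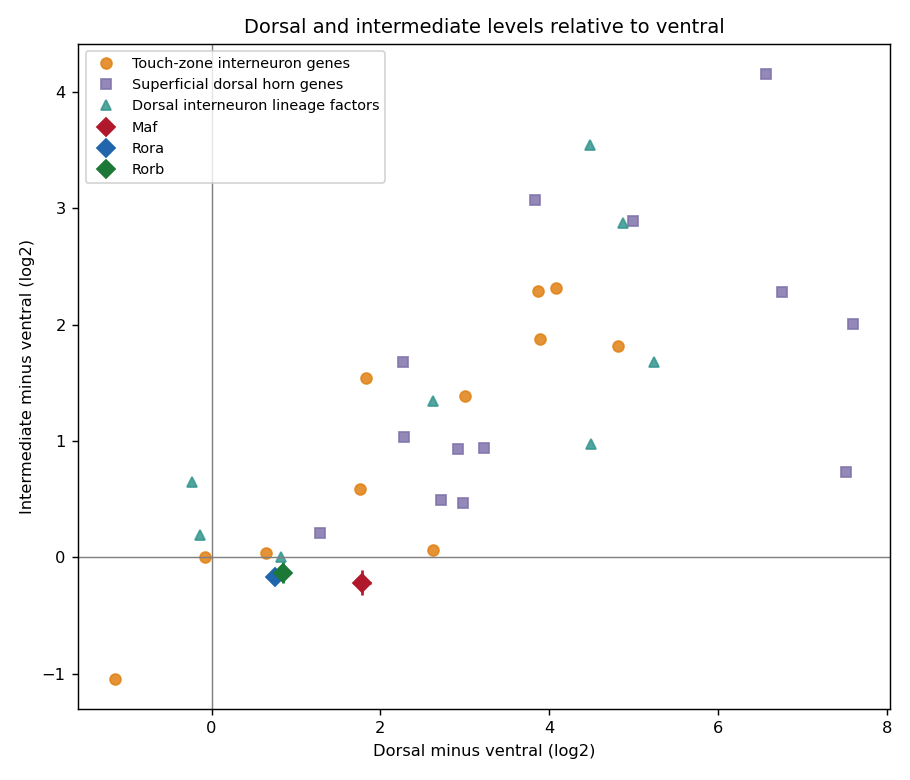
Intermediate minus ventral difference against dorsal minus ventral difference, both on the log2 scale, for Maf, Rora and Rorb (diamonds, with the model's standard error) and the tested genes of 3 dorsal horn lists. Both axes share the ventral arrays, so the slope of the cloud is no result. The 3 factors lie just below 0 on the vertical axis (-0.13 to -0.22), while most dorsal horn genes with a positive horizontal value lie above it.

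Markers of other cells moved between the regions as well. Sensory ganglion neurons, where Maf, Mafa and Ret are also used, had 14 listed genes, of which 6, Scn10a, Avil, Trpv1, Th, Runx1 and Runx3, were at the floor on all 9 arrays. Their list's summed level ran, as log2, from 9.23 to 9.76 in intermediate, 10.04 to 10.24 in dorsal and 9.51 to 9.96 in ventral pieces, and in dorsal relative to ventral pieces 1 of 6 tested, Pou4f1, which dorsal horn lineages also use, was called higher and 2, Prph and Isl1, which motor neurons also use, lower. The sums are mostly those of single genes, Pou4f1 in dorsal pieces (mean 10.08) and Prph in ventral pieces (mean 9.41). Microglia, which also express large Maf factors, had 0 of 14 tested genes called higher and 2 called lower in dorsal than ventral pieces, with summed levels of 12.43 to 12.59 in intermediate, 12.69 to 12.97 in dorsal and 13.37 to 13.46 in ventral pieces. At an unadjusted p under 0.05 these limma counts were 0 higher and 3 lower. In intermediate relative to dorsal pieces, 9 of the 14 microglia genes were called lower, the direction of Maf, and this count was 0 without animal 1 and 0 without animal 3 (7 and 5 at an unadjusted p under 0.05 in limma). Astrocytes, which are known to express Rora and Rorb, had all 12 genes called lower in dorsal than ventral pieces (median -1.02) and 7 called higher and 1 lower in intermediate than dorsal pieces, with summed levels of 16.58 to 16.66 in intermediate, 16.28 to 16.44 in dorsal and 17.12 to 17.15 in ventral pieces. Of 11 oligodendrocyte lineage genes tested, 10 were called lower in dorsal than ventral pieces, as were 10 of 12 endothelial and mural genes (6 without animal 3), 6 of 9 ependymal genes and 1 of 6 Schwann cell genes (Sox10, which is also on the oligodendrocyte list; 2 without animal 1). In intermediate relative to dorsal pieces, 4 of the 6 Schwann cell genes, Pmp2, Pmp22, Egr2 and Ncmap, were called lower (median -3.84), the direction of Maf, Rora and Rorb. With animal 1, 2 or 3 left out, that count was 2, 2 and 0 (4, 3 and 4 at an unadjusted p under 0.05 in limma), and the summed levels, mostly those of Mbp, which oligodendrocytes also express, ran from 15.94 to 16.02 in intermediate, 16.09 to 16.34 in dorsal and 16.17 to 16.21 in ventral pieces. Of 11 meningeal and fibroblast genes tested, 2 were called lower in dorsal than ventral pieces (1 without animal 1, and 0 without animal 2 or animal 3, where 1 and 2 had an unadjusted p under 0.05 in limma) and 9 lower in intermediate than dorsal pieces (3 without animal 1, and 0 without animal 3, where 8 had an unadjusted p under 0.05 in limma), with summed levels of 11.66 to 11.97 in intermediate, 13.69 to 14.79 in dorsal and 14.11 to 14.55 in ventral pieces. In intermediate relative to ventral pieces, the contrast in which Rora was called lower, 11 of 12 astrocyte genes were called lower too (median -0.58; 8 or 9 with 1 animal left out). So were 10 of 11 oligodendrocyte lineage genes, 10 of 12 endothelial and mural genes (6 without animal 3), 10 of 14 microglia genes (6 without animal 1 or 3), 10 of 11 meningeal and fibroblast genes and 4 of 6 Schwann cell genes. What part these cells had in the levels of Maf, Rora and Rorb was not tested.

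The check of the regions against their own markers left gaps on the ventral side and on the dorsal side. Of the ventral interneuron and motor neuron list, 7 genes were tested, and in dorsal relative to ventral pieces 2, Foxp2 and Isl1, were called lower, 1, Calb1, was called higher and 4 were not called. Its summed level, carried mostly by Calb1, which is also on the touch-zone list, ran from 10.26 to 10.57 in intermediate, 11.45 to 11.68 in dorsal and 9.38 to 9.56 in ventral pieces. The motor neuron genes Chat, Slc18a3 and Slc5a7 and the interneuron factor En1 were at the floor on all 9 arrays. Foxp2, a factor of ventral interneurons, read 3.53, 3.84 and 3.55 in dorsal and 8.34, 8.12 and 8.22 in ventral pieces. Prph, an intermediate filament gene of motor and sensory neurons, was at the floor in dorsal pieces and stood at 9.53, 9.56 and 9.13 in ventral pieces. On the dorsal side, all 13 superficial genes tested and 6 of the 8 lineage factors tested were called higher in the pieces labelled dorsal than in ventral ones. The remaining lineage factors were Prdm8, called lower, and Lhx5, not called, and both were called higher in intermediate than dorsal pieces, a count of 2 that was 1 without any 1 animal. At the floor on all 9 arrays were the superficial gene Tacr1 and the lineage factors Tlx1, Ptf1a and Gsx1. So was the touch-zone gene Neurod4. Of the genes listed, 11 of 14 lineage factors and 12 of 15 touch-zone genes had a probe set.

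Genes whose values across the 9 arrays were nearest to those of each factor were found by the root-mean-square difference of values centred on each gene's mean, among 12831 genes above the floor on every array. For Maf the 5 nearest were Shisa6 (0.16), Clcf1 (0.19), Pamr1 (0.20), Ldb2 (0.22) and Wnt4 (0.27). Shisa6, an AMPA receptor auxiliary protein, averaged 9.95 over the intermediate, 11.79 over the dorsal and 9.80 over the ventral arrays. For Rora they were Zfand6 (0.044), Adcy6 (0.078), Ccng2 (0.090), Tle3 (0.091) and Rorb (0.10). For Rorb they were Tspan18 (0.081), Zfand6 (0.088), Hdac9 (0.089), Rora (0.10) and Fzd3 (0.11). Rora and Rorb were thus each among the 5 nearest of the other. Neither was among the 5 nearest of Maf, for which Rorb ranked 91 and Rora 135 of the 12831 genes, since the measure counts the size of a difference. Pearson's r across the 9 arrays was 0.98 for Maf with Rora, 0.99 for Maf with Rorb and 0.98 for Rora with Rorb. These values describe 9 arrays that fall into 3 regions and share 3 animals, so they follow the difference between regions.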

How the data were processed

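RNA of spinal cord pieces was hybridised as biotin-labelled cRNA to Affymetrix arrays, per the labels' protocols. The authors' deposited table holds 1 value per probe set and array, read here as log2 because values run from 2.15 to 16.27; background correction, summary and normalization are not given in the sources used here. Of 45037 probe sets, 34945 had 1 gene symbol in the platform annotation, and only those were named; RefSeq's table matched 34741 and changed 0 symbols. Genes were represented by the brightest probe set and kept at the 30th percentile of probe set means. limma 3.58.1 in R 4.3.3 fitted region and animal to all 9 arrays (4 residual degrees of freedom), with eBayes and two-sided tests, over 13959 genes and separately over 31526 probe sets; it was tested on simulated data first. Figures were drawn with matplotlib 3.10.9 in Python 3.11.15. The number of arrays limits the precision.

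Animals come from the titles. Deviations of same-animal arrays from region means correlated at -0.066 to 0.25 (mean 0.081, 9 pairs, 3 above 0.1).

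The 4 genes and the gene lists were chosen with earlier results of these data known. Named were all probe sets of the 4 genes, their relatives, up to 4 called genes a list with the largest differences, markers at the floor, and the 5 nearest genes. Shh, Prdm8, Lhx5, Slc6a5, Arntl, Per2, the dimmer probe sets of Ret and Kcnip2 and the superficial genes compared among intermediate pieces were named after their values were seen. Alternatives were no animal block, leaving out each animal, median centring, no filter or a 50th percentile filter, robust moderation, arrays of 2 regions only, another choice of probe set and, chosen after seeing the data, genes of 9 distinct values with Maf, Rora and Rorb kept.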

Additional observations from a re-analysis of the deposited data

How the results depend on the processing

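Of the 9 tests of Maf, Rora and Rorb, leaving out 1 animal kept direction and call in 24 of 27 refits, and the other alternatives in 80 of 81, among them the added fit on genes of 9 distinct values, in which the 3 genes were kept although Maf has 7 distinct values and Rorb 8. With animals left out, Maf ran from -0.33 to -0.14 for intermediate minus ventral (called without animal 2), Rora from -0.19 to -0.15 for intermediate minus ventral, and Rorb from -1.0 to -0.93 for intermediate minus dorsal. The exception among the others was Rora at -0.11 for intermediate minus ventral with the most variable probe set. Without the replicate block, which pairs arrays by animal, Maf stayed at 1.78 for dorsal minus ventral and no call of the 3 genes changed, while the intermediate minus ventral calls of Rora 1436326_at (adjusted p = 0.0515) and Nr1d2 (0.0538) were lost. Called genes, 4202 for intermediate minus dorsal, numbered 1464 to 2454 without 1 animal and 2105 with arrays of 2 regions only; called probe sets, 7113, numbered 1787 to 2735 and 2486. For intermediate minus ventral, 4200 to 5197 genes and 5932 to 7550 probe sets were called without 1 animal, and for dorsal minus ventral 8583 to 9661 probe sets. Called probe sets of the 3 genes ran from 3 to 7 lower in intermediate than dorsal pieces, 0 to 3 lower in intermediate than ventral pieces, and 0 to 1 lower in dorsal than ventral pieces. Uncalled differences that changed sign with an animal left out were, for intermediate minus ventral, Maf 1435828_at (-0.39 to 0.018), 1444073_at (-0.35 to 0.041) and 1437473_at (-0.026 to 0.19), and, for intermediate minus dorsal, Mafg (-0.13 to 0.020) and Maff (-0.098 to 0.0034, and 0.0076 under median centring). Fewer samples enter the refits without an animal or a region; for the alternatives on all 9 arrays the cause was not tested.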
